A study of Mus musculus with 12 samples.

Results

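Dlx5 is a homeobox transcription factor of the distal-less family, whose homeodomain binds short AT-rich DNA with a TAATT core. In the embryonic inner ear it is made in the dorsal part of the otic vesicle, the epithelial sac from which the labyrinth grows, and it is known for its part in forming the semicircular canals. The comparison described here asked which genes had other RNA levels when Dlx5 was put into a cell line derived from that vesicle. It rests on 4 of the 12 arrays of the series, and the other 8, used only for values set side by side at the end, are of otic vesicles dissected at embryonic day 10 (E10) or E10.5 from embryos labelled wild-type or Dlx5-null, 2 arrays for each genotype and stage.

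All 4 arrays held RNA of 2B1, a mouse otic vesicle cell line. In the Dlx5 group (2 arrays) cells were transiently transfected with a vector for Dlx5 and green fluorescent protein (GFP), and in the empty vector group (2 arrays) with a vector for GFP alone, so that every culture carried GFP. Cells of both groups grew at 32 °C with gamma-interferon, were transfected, and then differentiated for 4 days at 37 °C with no gamma-interferon before RNA was taken. The 2 arrays of a group came from independent cultures. The sources used here do not give the share of cells that took up a vector or whether the line is a single clone. Since RNA was pooled over a culture, fewer cells of a type and less RNA per cell cannot be told apart. Levels are log2 values after robust multi-array averaging (RMA), on which a difference of 1 is a doubling, and they are listed below as Dlx5 replicates 1 and 2 and then empty vector replicates 1 and 2.

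The line was checked against markers of cell types. Of 10 otic markers with a probe set, 6 lay above the dimmest 25% of genes (below 4.85) and Pax8, Tbx1, Hmx2 and Hmx3 lay in it. Over the 4 arrays Eya1 was at 4.72 to 5.18, Gata3 at 5.27 to 5.83 and Sox9 at 5.32 to 5.55. Oc90 was at 5.67 to 6.17, Sox10 at 6.53 to 7.17 and Epcam at 6.68 to 7.08. Of 5 endothelial markers Pecam1, Cdh5, Tie1 and Emcn were that dim, but Kdr was at 6.06 to 6.44. Of 7 markers of macrophages and blood Ptprc and Alas2 were that dim and 5 were not, with Csf1r at 7.14 to 7.52 and Cd68 at 5.94 to 6.40. Of 9 mesenchymal markers 8 were tested, with Vim at 11.56 to 11.69 and Twist1 at 9.58 to 9.77 over the 4 arrays. Zeb1 was dimmer at 5.53 to 5.91, and Prrx2 lay in the dimmest 25%. Of 4 smooth muscle markers 3 were tested, with Acta2 at 9.85 to 10.08 and Tagln at 10.16 to 10.78. Myh11 was dimmer at 4.92 to 5.55, and Cnn1 lay in the dimmest 25%. Whether a dim value is signal or background is unknown, since no detection calls were used.

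A control array stood apart from the other 3 arrays. Empty vector replicate 1 had correlations of 0.983 to 0.988 with the other arrays over all probe sets, while those 3 correlated at 0.994 to 0.996 with each other. Its median level over the tested genes was 6.89, against 7.13 to 7.16, and its bacterial hybridisation controls had a mean of 10.77, against 11.22 to 11.45. The difference between the 3' and 5' probe sets of Gapdh was 1.82 there, against 1.34 and 1.36 with Dlx5 and 1.62 in the other control, but that of beta-actin, at 1.96, 2.03, 2.06 and 2.14, did not set this array apart. The part of these differences in the results was not tested, so values without that array are given beside the counts and the genes described. Without it 1 control is left, so p-values and counts of that run hold no spread between controls. They are a description and no second test.

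No gene of 13647 passed the threshold, an adjusted p of 0.05, in the moderated test of limma (smallest adjusted p = 0.324). At an unadjusted limma p under 0.05 there were 1760 genes, 12.9% of those tested, of which 1325 (9.71%) had higher values with Dlx5 and 435 (3.19%) lower values. Empty vector replicate 1 lay below replicate 2 in 1279 of the 1325 genes (96.5%) and in 70.7% of all genes. Without that array 0 genes passed (smallest adjusted p = 0.275), and 1200 genes (8.79%) were higher and 1248 (9.14%) lower at an unadjusted p under 0.05. Without empty vector replicate 2, which leaves the array that stood apart as the only control, 1742 genes passed, and with an intensity trend and robust estimation over all 4 arrays 47 passed. Of the genes counted over all 4 arrays, 915 of the 1325 higher and 334 of the 435 lower ones were counted again without it. The share of higher genes among the counted ones was 75.3%, 52.3% after another quantile normalization of the 4 arrays (1285 higher, 1174 lower) and 45% with each array centred on its median (1054 higher, 1286 lower), which moved the median difference over all genes by -0.13.

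The size of the differences was mostly modest. The median log2 difference over all genes was 0.05, and -0.01 without empty vector replicate 1. It reached 1 or more in 32 genes and -1 or less in 14. Among the genes of largest difference were some set by that 1 control array, empty vector replicate 1. Myo1f, a myosin of blood cells, had values of 5.57, 4.69, 10.75 and 5.65. Atg12, an autophagy protein conjugated to Atg5, had values of 7.01, 6.76, 11.40 and 6.99. Their differences of -3.07 and -2.31 came to -0.52 and -0.11 without empty vector replicate 1. Clca3a1 and Cox7c, the latter a subunit of cytochrome c oxidase, had the largest positive differences of 1.65 and 1.56, and both came to 1.07 without it. These 4 genes are named after their values were seen.

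**Figure D1:**
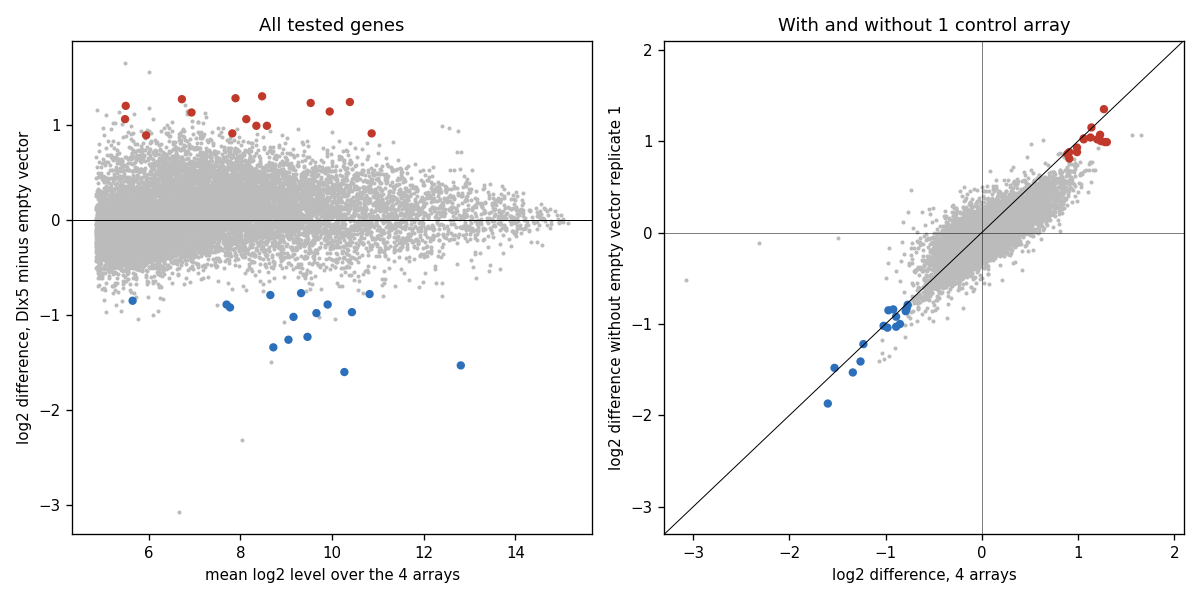
Log2 difference (Dlx5 minus empty vector) of the 13647 tested genes against their mean log2 level (left), and the same difference with all 4 arrays and without empty vector replicate 1 (right, diagonal line marks equal values). Red and blue points are the 15 named higher and 15 named lower genes, which lie near the diagonal. Their choice by small p and by groups that do not overlap favours such a place. Myo1f at -3.07 and Atg12 at -2.31 lie near 0 on the vertical axis.

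The transfected gene was near the bottom of the measured range. Its probe set read 5.14, 4.80, 4.66 and 4.79, so both Dlx5 arrays lay above both controls, by 0.01 at the nearest. The difference of 0.25 (SE 0.18) missed the threshold (limma adjusted p = 0.544), and it was 0.18 without empty vector replicate 1. Whether the probes lie within the transfected sequence is unknown, so the value does not check the labels.

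Of the related family members, Dlx1 had values of 13.32, 13.37, 13.07 and 13.27, a difference of 0.18, and Dlx2 had values of 7.08, 6.80, 6.85 and 7.21, a difference of -0.09. Dlx3 had values of 6.14, 6.25, 6.84 and 6.35, and its difference of -0.40 (adjusted p = 0.415) came to -0.16 without the control that stood apart. Dlx4 differed by -0.01, and Dlx6, the gene that neighbours Dlx5, was too dim to be tested at 3.94, 4.56, 4.17 and 4.16. In none of the 5 tested members was the difference large beside the spread within a group.

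The named genes are the 15 with the smallest unadjusted p in each direction among genes with a log2 difference of 0.5 or more and with every Dlx5 array on the same side of both controls. Such separation alone held for 1054 genes in the higher direction (7.72% of those tested) and 239 in the lower (1.75%). Their adjusted p values ran from 0.324 to 0.377, so all are given as values and none as a change.

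Of the higher genes, Ptn, Cp and Col3a1 encode secreted proteins. Ptn, pleiotrophin, a heparin-binding growth factor, had values of 10.18, 10.12, 8.76 and 9.08, a difference of 1.23 (SE 0.18, 2.35-fold), and 1.07 without empty vector replicate 1. Cp, ceruloplasmin, a copper-carrying ferroxidase, had values of 11.03, 10.99, 9.53 and 10.01, a difference of 1.24 (SE 0.20), and 1.00 without that array. The Dlx5 cultures agreed closely in both genes and the controls were spread, with replicate 1 the lower. Col3a1, a chain of fibrillar collagen, was tighter in both groups at 8.59, 8.72, 7.56 and 7.63, a difference of 1.06 (SE 0.16) that came to 1.03 without that control. Serpinb1a, an intracellular inhibitor of serine proteases, had values of 10.46, 10.57, 9.38 and 9.37 and a difference of 1.14 (SE 0.16). Its controls were nearly equal, so that leaving one out moved the difference only to 1.15.

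The gene with the smallest p in the higher direction was Rgcc, a regulator of the cell cycle, at 7.35, 7.36, 6.16 and 6.01. Its difference was 1.27 (SE 0.16, 2.41-fold), and it was 1.35 without empty vector replicate 1. Apcdd1, a membrane protein that inhibits Wnt signalling, had values of 7.52, 7.47, 6.28 and 6.46, a difference of 1.13 (SE 0.16) and 1.04 without that array. Crabp1, which binds retinoic acid in the cytoplasm, had values of 8.26, 8.30, 7.34 and 7.40, and its difference of 0.91 (SE 0.16) came to 0.88 without the outlying control. In each of these genes the gap between the groups was several times the gap within either group. The choice by small p favours such genes, so this is no further support for them. Scara5, a receptor for ferritin, was dimmer at 6.12, 5.90, 4.92 and 4.99, a difference of 1.06 that came to 1.02. Rp2, which activates the GTPase of Arl3, had values of 6.01, 6.18, 4.71 and 5.08, a difference of 1.20 that also came to 1.02.

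Of the transcription factors, Cebpd, a leucine zipper protein, had values of 8.55, 8.51, 6.97 and 7.54. Its controls were 0.57 apart, and the difference of 1.28 came to 0.99 without replicate 1. The zinc finger genes Zfp51, Zfp948 and Zfp830 had differences of 0.99, 0.99 and 0.91, which came to 0.93, 0.88 and 0.81. Ms4a2, the beta chain of the high-affinity receptor for immunoglobulin E, had values of 9.15, 9.09, 7.52 and 8.13, so its difference of 1.30 also leaned on the lower control and came to 0.99. Fam227b had a difference of 0.89, and 0.86 without that array. Empty vector replicate 1 lay below replicate 2 in 13 of these 15 genes.

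RefSeq windows of the promoters, from 250 bases before to 50 after a start on GRCm38.p6, were searched for TAATT and its reverse complement AATTA, which share no start and are counted together. A match was held by 27.0% of the 32851 windows in the table and by any window of 19.6% of the tested genes that had one. Among the named genes it was held by 2 of 10 higher and 3 of 12 lower ones with a window, so neither share is a result about these genes. The windows of Ptn (chr6:36810130-36810429, minus strand) and of Cp (chr3:19956804-19957103, plus strand, 1 of 2 windows listed) are shown because a further probe set of each gene was higher with Dlx5 by a similar amount, and were chosen after the values were seen. Further sets of Serpinb1a (0.98) and Col3a1 (1.18) were higher too, so this does not single out Ptn and Cp. Of the 2 windows of Cp, the one shown was taken for its number of matches. Capitals mark the match, which starts at -230 in Cp, and Ptn held none.
Ptn: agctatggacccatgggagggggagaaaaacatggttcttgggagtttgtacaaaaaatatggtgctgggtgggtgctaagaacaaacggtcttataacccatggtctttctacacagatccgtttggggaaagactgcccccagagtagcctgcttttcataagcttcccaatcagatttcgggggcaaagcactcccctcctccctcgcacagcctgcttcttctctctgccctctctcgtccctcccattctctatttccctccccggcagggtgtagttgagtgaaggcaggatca
Cp: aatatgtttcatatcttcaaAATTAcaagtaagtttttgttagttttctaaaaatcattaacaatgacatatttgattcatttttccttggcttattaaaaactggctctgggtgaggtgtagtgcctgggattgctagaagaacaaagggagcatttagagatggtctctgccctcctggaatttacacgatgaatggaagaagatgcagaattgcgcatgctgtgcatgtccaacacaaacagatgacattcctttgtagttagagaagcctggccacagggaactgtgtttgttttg
The other named genes with a match were Ms4a2, Hdac4, Disp1 and Satb1. A match describes these letters and shows no binding.

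Among the lower genes, Nes, the intermediate filament nestin of neural progenitors, had the smallest p. Its values were 8.91, 8.79, 10.09 and 10.07, a difference of -1.23 (SE 0.16), and -1.22 without empty vector replicate 1. Sox11, a transcription factor of progenitor cells, had values of 9.92, 9.98, 11.04 and 10.80 and a difference of -0.97 (SE 0.17). Both genes were thus lower by a similar amount in each Dlx5 culture, and that of Sox11 came to -0.85 without the control that stood apart. Satb1, a chromatin organiser, had values of 5.22, 5.23, 5.92 and 6.22, a difference of -0.85 that was larger in size without that array.

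Cpsf3, the endonuclease that cuts the 3' end of pre-messenger RNA, had values of 9.31, 9.63, 10.80 and 11.34, a difference of -1.60 (SE 0.22) and -1.87 without empty vector replicate 1. Elp3, the catalytic subunit of Elongator, had values of 7.88, 8.22, 9.20 and 9.58, and its difference of -1.34 (SE 0.20) came to -1.53. In these genes the control that stood apart was the one nearer to the Dlx5 cultures. Nsd2, a histone methyltransferase, had values of 9.22, 9.12, 10.09 and 10.21, a difference of -0.98 that came to -1.04. Hdac4, a histone deacetylase, had values of 9.46, 9.45, 10.21 and 10.48, and its difference went from -0.89 to -1.03. Mier2, a partner of histone deacetylases, differed by -1.26 and Smyd5, a SET-domain methyltransferase, by -0.77, and they came to -1.41 and -0.79.

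Gsk3b, a kinase that marks beta-catenin for breakdown, had values of 7.24, 7.27, 8.11 and 8.17, a difference of -0.89 and of -0.92 without empty vector replicate 1. Disp1, needed for the release of Hedgehog ligands, had values of 7.16, 7.47, 8.31 and 8.15, a difference of -0.92 that came to -0.84. Tnks2, a tankyrase, Exoc6b, a subunit of the exocyst, and Pik3r5, a regulatory subunit of phosphoinositide 3-kinase, differed by -1.02, -0.78 and -0.79, and came to -1.02, -0.83 and -0.86. Ccnh, cyclin H of the kinase that activates other cyclin-dependent kinases, had values of 11.53, 12.56, 13.62 and 13.52, and the Dlx5 cultures were 1.03 apart beside a difference of -1.53 (SE 0.31), which came to -1.48 without that control. Empty vector replicate 1 lay above replicate 2 in 4 of the 15 lower genes.

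**Figure D2:**
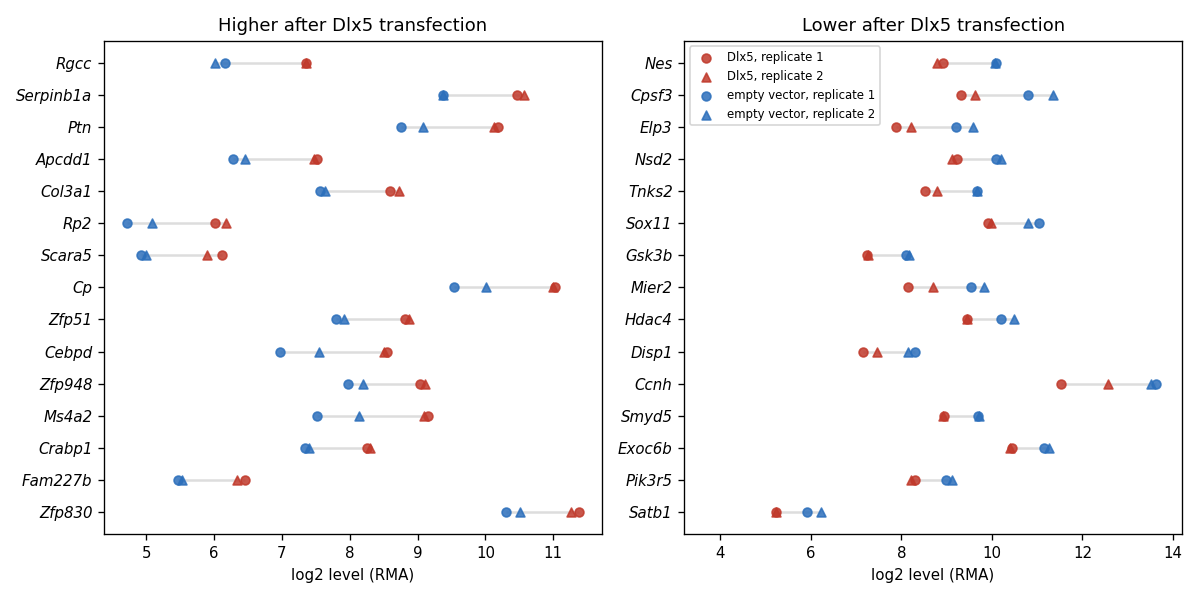
Log2 RMA levels of the 15 named higher genes (left) and the 15 named lower genes (right) on each of the 4 arrays, red for Dlx5 and blue for empty vector, circles for replicate 1 and triangles for replicate 2. The groups do not overlap in any of them, which is how they were chosen, and in 13 of the 15 higher genes the blue circle lies left of the blue triangle.

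A gene can have several probe sets on the array, and those not used for the test are given here as a description. Of the higher genes 13 had another probe set, and in 8 of them at least 1 other set had a difference of the same sign and at least 0.5 times the size. The 8 included Serpinb1a (0.98), Col3a1 (1.18), Ptn (1.33 in one set and -0.11 in the other) and Cp (4 of 7 sets from 0.98 to 1.49, and 0.52, 0.03 and -0.07 in the rest). Apcdd1 had 0.89 and 1.24 in a pair of sets and -0.06 to 0.20 in the other 3. For Scara5, Ms4a2 and Fam227b the other set had the opposite sign, at -0.13, -0.25 and -0.06. For Cebpd and Zfp948 it had the same sign but missed the mark, at 0.43 and 0.08 beside 1.28 and 0.99.

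Of the lower genes 14 had another set, and 3 had such a one, namely Elp3 (-1.22), Sox11 (-0.88 and -0.52) and Smyd5 (-0.83). These genes had further sets that did not meet the mark. They were at -0.01 for Elp3, at -0.08, -0.27 and -0.44 for Sox11 and at -0.36 for Smyd5. Among sets above the dim level, 9 of 15 met this mark for the higher genes and 4 of 24 for the lower ones. Of 12 lower genes with another set above the dim level, 3 had one that met it. The other sets of Nes had -0.05 and -0.26 and those of Cpsf3 had 0.24 and -0.33. Those of Nsd2 ran from -0.14 to 0.19, of Gsk3b from -0.31 to 0.04 and of Satb1 from -0.07 to 0.05. Tnks2 had 0.10 and 0, Mier2 -0.17 and -0.24, Hdac4 -0.17 and 0.06, Disp1 -0.06 and Exoc6b 0.23. Those of Ccnh had 0.43 and 1.16, so that the mean over all its sets was 0.02. Which transcripts these sets read was not examined, and probe sequences were not used.

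Lists of 35 pathways, families and cell types were read by counts and medians, and no list was tested as a set. They hold 605 different tested genes, of which 104 had an unadjusted p under 0.05, 75 of them higher and 29 lower, and none passed the adjusted threshold. The counts are set beside the shares of all tested genes, 9.71% higher and 3.19% lower over 4 arrays, and 8.79% higher and 9.14% lower without empty vector replicate 1, so that lower counts go up without that array over all genes as well.

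Genes of cholesterol synthesis had the highest share. The pathway builds cholesterol from acetyl units in the endoplasmic reticulum, and its enzymes are known to be switched on together when sterols run low. Of 20 tested members 9 were higher at an unadjusted p under 0.05 (45%) and 0 lower, and the median difference was 0.40. Cyp51, the lanosterol demethylase, had values of 8.88, 8.75, 7.70 and 8.14, a difference of 0.90 (SE 0.19). Msmo1, the methylsterol oxidase of the following steps, had values of 8.35, 8.35, 7.26 and 7.80, a difference of 0.82 (SE 0.21). The other members named by size were Ebp, a sterol isomerase, at 0.76 and Sc5d, a sterol desaturase, at 0.74.

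The control that stood apart lay below the other control in 8 of the 9. The mean level of the list was 8.39, 8.39, 7.80 and 8.20, so both controls lay below both Dlx5 cultures, and replicate 1 lay furthest. Without replicate 1 the differences of Cyp51, Msmo1, Ebp and Sc5d were 0.68, 0.55, 0.42 and 0.48, and 7 members (35%) remained, all 7 of them among the 9. The median then was 0.13, beside -0.01 over all genes. It was 0.25 after another quantile normalization and 0.27 with arrays centred on their medians, beside -0.02 and -0.09 over all genes.

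Interferon response genes came next. They are switched on through the STAT factors, and both groups had grown with gamma-interferon until the shift to 37 °C. Of 31 tested members 8 were higher (25.8%) and 0 lower, and 27 had a difference above 0, with a median of 0.29. Ifit1, an RNA-binding antiviral protein, had values of 10.80, 10.98, 9.78 and 10.48, a difference of 0.76 (SE 0.24). Its relatives Ifit2 and Ifit3 differed by 0.76 and 0.67, and Usp18, which removes the ubiquitin-like Isg15 from proteins, by 0.70.

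Here too empty vector replicate 1 was the lower control in all 8 of the members counted. The mean level of the list was 9.68, 9.66, 9.22 and 9.55. Without that array the differences of Ifit1, Ifit2, Usp18 and Ifit3 were 0.41, 0.32, 0.39 and 0.48, and 8 members were higher and 1 lower, 5 of the 8 being the same. Oas2, an oligoadenylate synthetase, was an exception among these genes: its controls were nearly equal at 7.58 and 7.59, below 7.99 and 8.01 with Dlx5, and its difference of 0.42 came to 0.41. Oas2 is named after its values were seen.

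**Figure D3:**
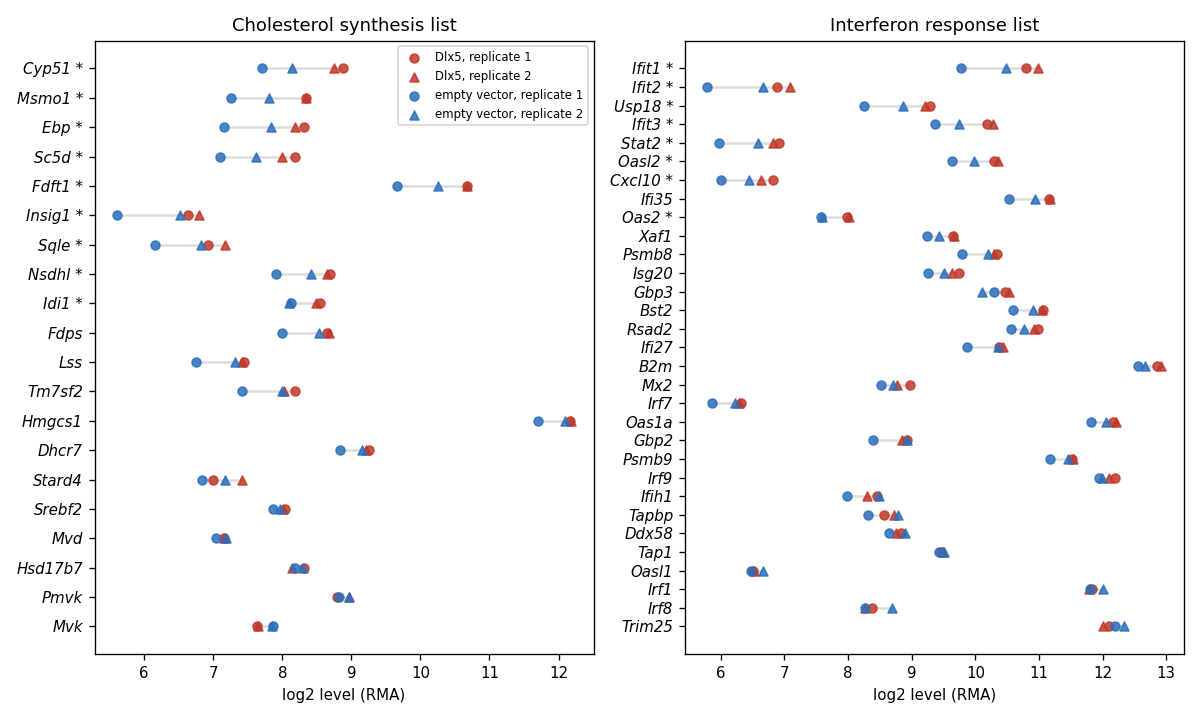
Log2 RMA levels of the 20 tested cholesterol synthesis genes (left) and the 31 tested interferon response genes (right) on each array, ordered by difference, with symbols as for the named genes and a star for an unadjusted limma p under 0.05. The blue circle, empty vector replicate 1, is the lowest point in most rows, and the blue triangle lies between it and the red points in most of the upper rows.

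The signalling lists held differences in both directions. BMP signalling, in which secreted ligands act through Smad factors and which patterns the otic vesicle, had 2 of 21 members higher and 2 lower. Bmp4, a ligand, had values of 7.48, 7.36, 6.32 and 6.99, a difference of 0.77 (SE 0.23), and 0.43 without empty vector replicate 1. Fst, follistatin, an antagonist, had values of 8.30, 8.35, 7.82 and 7.97, a difference of 0.43 that came to 0.36. Both lower members are induced by BMP signals, namely Smad7, an inhibitor, at -0.43, and Id1, an inhibitor of helix-loop-helix factors, with values of 6.45, 6.44, 6.93 and 6.81, a difference of -0.43. They came to -0.58 and -0.37. All 4 were counted again without that array, where 2 were higher and 4 lower.

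In Wnt signalling 4 of 31 members were higher and 1 lower (median -0.01), and 2 and 1 without empty vector replicate 1. Nkd2, a feedback inhibitor, had values of 6.20, 6.21, 5.08 and 5.93 and a difference of 0.70 that came to 0.28 without empty vector replicate 1, whereas Sfrp1, a secreted antagonist, at 8.91, 8.95, 8.23 and 8.48 came from 0.58 to 0.45. Fzd8, a receptor, differed by 0.54, and by 0.37 without it. The 1 lower member was Ccnd1, cyclin D1, which Wnt signals induce, at 12.85, 12.80, 13.19 and 13.43, a difference of -0.49 and of -0.61 without that control.

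Retinoic acid genes had 2 higher and 3 lower of 12, and 1 and 2 without empty vector replicate 1, and their members stand at different steps. Of the genes that make retinoic acid, Aldh1a1 differed by 0.52 and Aldh1a3, at 4.95, 5.21, 6.19 and 5.41, by -0.72. Cyp26b1, which breaks it down, had values of 8.17, 8.16, 8.74 and 8.93, a difference of -0.67 (SE 0.16) and of -0.77 without empty vector replicate 1. The differences of Aldh1a1 and Aldh1a3 came to 0.24 and -0.33 without it, while that of Crabp1 stayed at 0.88.

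FGF signalling had 3 of 18 members higher and 0 lower, and 2 and 2 without empty vector replicate 1. Il17rd, an inhibitor of the pathway, differed by 0.78 and Fgf7, a ligand, by 0.58, and they came to 0.37 and 0.34. Fgfr3, a receptor, had values of 6.98, 7.01, 6.65 and 6.32, and its difference went the other way, from 0.51 to 0.68. In Hedgehog signalling 2 of 12 were higher and 1 lower, and 2 and 2 without that array. Gas1, a co-receptor, had values of 8.60, 8.66, 7.79 and 8.13 and a difference of 0.67, Cdon, another co-receptor, differed by 0.50 and Ihh, a ligand, by -0.50, and they came to 0.50, 0.28 and -0.40. The insulin and IGF list had 3 of 16 higher, with Igfbp4, a binding protein, at 0.73, and 1 lower, the receptor Igf1r, at 9.65, 9.59, 10.13 and 10.09, a difference of -0.49. Their differences came to 0.54 and -0.47, and the counts to 4 and 1. The TGF-beta list had 2 of 17 higher and 1 lower, with the matrix protein Tgfbi at 0.60 and the ligand Tgfb3, at 8.97, 8.93, 9.41 and 9.68, at -0.60. These came to 0.45 and -0.73, and the counts to 1 and 3.

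Collagen chains also went both ways. Of 21 tested, 3 were higher and 2 lower, and all 5 were counted again without empty vector replicate 1, where 3 were higher and 4 lower. Beside Col3a1, Col4a5 of basement membranes had values of 7.62, 7.53, 6.50 and 6.83, a difference of 0.91, and Col6a2 a difference of 0.66, and they came to 0.75 and 0.53. Col1a1, the main chain of type I collagen, was lower at 13.45, 13.35, 13.92 and 13.91, a difference of -0.52 (SE 0.16) that came to -0.51. Of laminins, integrins and nidogens 2 of 23 were higher, Nid2 at 0.70 and Lamb1 at 0.52, and 2 lower, Lamb3 at -0.61 and Lamb2 at -0.47. Without that control 0 were higher and 6 lower (26.1%, beside 9.14% of all genes), and the differences of Nid2, Lamb1, Lamb3 and Lamb2 were 0.34, 0.32, -0.73 and -0.41. Among matrix proteases and hyaluronan genes 3 of 22 were higher and 1 lower, with Adamts5, which cleaves aggrecan, at 11.74, 11.74, 10.70 and 11.15, a difference of 0.82 that came to 0.59, and the counts came to 3 and 2.

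Of the lists of cell types, mesenchyme had 3 of 17 members higher and 1 lower, and 2 and 3 without empty vector replicate 1. Dcn, decorin, a matrix proteoglycan, had values of 7.48, 7.33, 5.87 and 6.64, a difference of 1.15 (SE 0.25) and 0.77 without that array. The platelet-derived growth factor receptors Pdgfrb and Pdgfra differed by 0.77 and 0.63, and came to 0.36 and 0.50. Zeb2, a repressor of epithelial genes, was lower at 8.26, 8.36, 8.78 and 8.75, a difference of -0.46 that came to -0.44. The mean level of this list was 8.90, 8.85, 8.50 and 8.80, so the groups did not overlap but 3 of the arrays lay within 0.10 of each other.

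Otic epithelium identity had 0 of 11 tested members at an unadjusted p under 0.05, with 9 more too dim. Its largest differences were those of Sox10 (-0.36), Gata3 (0.29), Spry1 (-0.29) and Oc90 (-0.26), which came to -0.15, 0.10, -0.12 and -0.09 without empty vector replicate 1, where 0 members were higher and 1 lower. Epithelial keratins and junctions had 1 of 15, Pof1b, an actin-binding protein of epithelia, with values of 6.47, 6.41, 5.01 and 5.97, a difference of 0.95 that came to 0.47, and 1 higher and 1 lower without that array. The otic neuron list had 9 tested members, 2 higher and 1 lower, and 2 and 0 without that array, and 12 too dim. Gap43, a protein of growing axons, had values of 7.16, 7.27, 6.04 and 6.48, a difference of 0.96 (SE 0.19), and 0.74 without that array. Tubb3, a neuronal tubulin, differed by 0.73 and Dcx, doublecortin, by -0.46, and they came to 0.37 and -0.38, so the members did not go one way. Markers of endothelium (5 tested) and of blood and macrophages (7 tested) had none in either direction, with or without that array.

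Hox cluster genes, which give position along the body axis, had 4 of 19 members higher (21.1%) and 0 lower, with a median of 0.25. The 4 were Hoxa9, Hoxb4, Hoxb2 and Hoxc8, at 0.61, 0.58, 0.55 and 0.55. Hoxb4 had values of 9.05, 8.90, 8.27 and 8.52. Without empty vector replicate 1 the differences were 0.22, 0.46, 0.21 and 0.31, and 3 members of the list were counted, 2 of them the same. The osteoblast and cartilage list, drawn from cells in which Dlx5 is known to act, had 0 of 11 higher and 1 lower, Col1a1, with the same counts without that array, and 7 members were too dim.

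Of genes of cell growth, DNA replication had 6 of 34 higher and 1 lower, and 7 higher and 8 lower (23.5%, beside 9.14% of all genes) without empty vector replicate 1. Cdc6, which loads the replicative helicase, had values of 8.26, 8.15, 6.85 and 7.84, and its difference of 0.86 came to 0.37, whereas Pole, a DNA polymerase, at 9.20, 9.11, 9.71 and 9.92 went from -0.66 to -0.77. Ribosome biogenesis had 5 of 24 higher and 2 lower, and 4 and 8 (33.3%) without it, with Nop56, a nucleolar protein, at 9.85, 9.89, 8.90 and 9.29 (0.78) and Nop2, an RNA methyltransferase, at 9.06, 9.08, 9.57 and 9.73 (-0.58), which came to 0.58 and -0.66. Mitosis and spindle genes had 1 of 32 higher and 2 lower, and 1 and 7 (21.9%) without it. Smooth muscle and contractile genes had 0 of 14 higher and 1 lower, Tagln at -0.45, and 4 lower (28.6%) without that array, Tagln at -0.60. Glia and neural crest genes had 0 of 8 higher and 1 lower (median -0.24), and 1 higher and 3 lower (37.5%) without it. Immediate early genes had 1 of 17 higher and 0 lower, and 0 and 4 (23.5%) without it.

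Among inflammatory genes Cxcl5, a chemokine, had values of 7.52, 7.48, 6.01 and 6.73, a difference of 1.13 (SE 0.24) and 0.77 without empty vector replicate 1. Nfkb2, a subunit of NF-kappaB, was lower at 8.35, 8.28, 8.89 and 9.01, a difference of -0.64 that came to -0.70. In all 3 of 18 members were higher and 1 lower, and 2 and 2 without that array. In the unfolded protein response 1 of 20 was higher and 2 lower, with Hspa5, the chief chaperone of the endoplasmic reticulum, at 10.63, 10.69, 11.29 and 11.02 (-0.50, and -0.36 without that array, where 1 was higher and 3 lower). Heat shock proteins had 0 of 16 in either direction, and 1 and 0 without it. Of glycolysis and hypoxia genes 1 of 21 was higher, Bnip3 at 0.77, and 1 lower, Pfkl at -0.41, and without it 1 and 4, with Bnip3 at 0.40 and Pfkl at -0.53. The p53 targets had 3 of 16 higher and 0 lower, and 2 and 1 without it, with Ei24 at 0.66 and 0.42. Axon guidance had 0 of 29 higher and 1 lower, and 0 and 4 without it. The 1 was Unc5b, a netrin receptor, at 11.74, 11.76, 12.22 and 12.40 (-0.56, and -0.65 without that array).

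**Figure D4:**
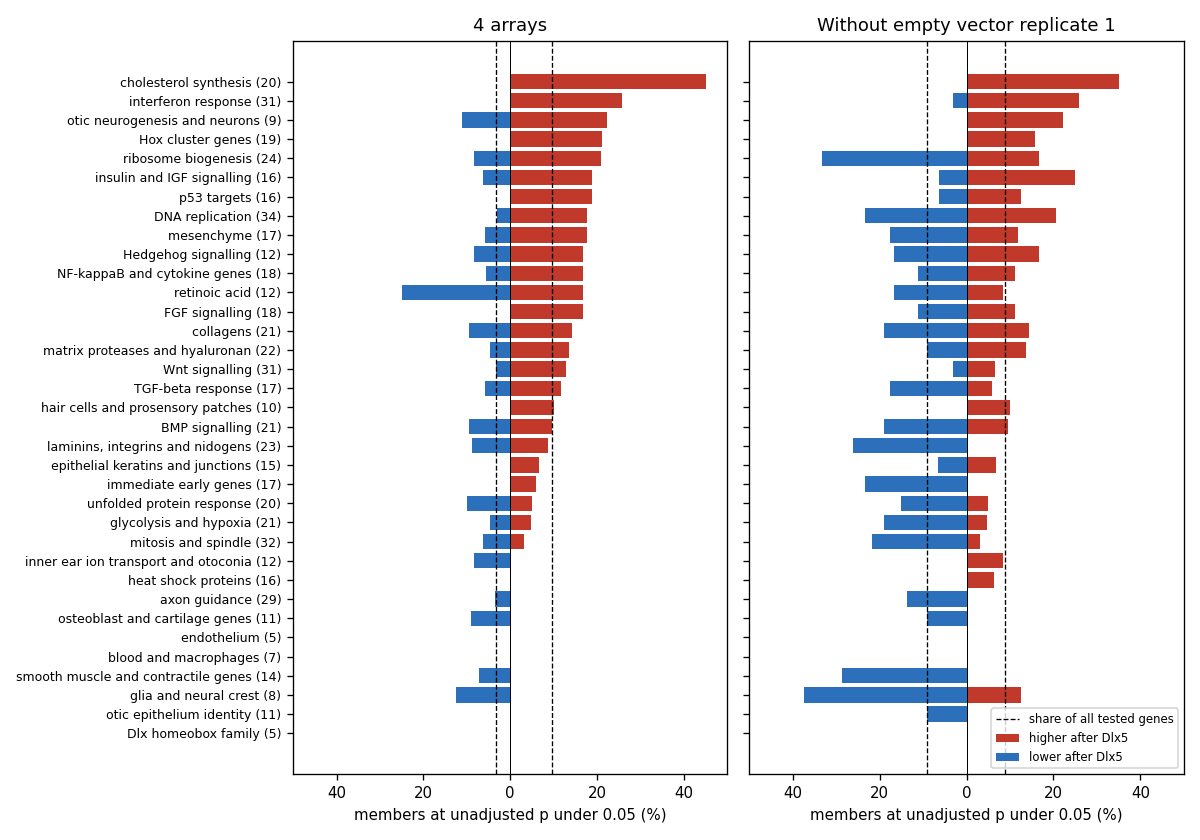
Share of tested members (%) with an unadjusted limma p under 0.05 in each of the 35 lists, higher with Dlx5 to the right and lower to the left, over all 4 arrays (left panel) and without empty vector replicate 1 (right panel), with the number tested in parentheses and dashed lines at the shares of all tested genes (9.71% and 3.19%, then 8.79% and 9.14%). Cholesterol synthesis lies furthest right in both panels, at 45% and 35%, while the lower share of all tested genes grows from 3.19% to 9.14% in the right panel.

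The 2B1 values can be set beside those of the otic vesicles, which share no arrays with them. The difference between the genotypes was fitted over both stages. Of 13645 genes tested there 3 passed the threshold (0.022%), and an unadjusted p under 0.05 was reached by 1.27% with higher and 2.84% with lower values in those labelled null. The Dlx5 probe set itself was higher in the arrays labelled null, at 7.27 to 8.02 against 6.11 to 6.30, so directions are those of the labels as given. Vesicle and cell line values seem to have been normalized apart, and no level is compared across them.

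Of the named genes Ptn, Apcdd1 and Cp had an unadjusted p under 0.05 in the vesicles, each with the opposite sign. Ptn was at 11.84 and 12.03 (E10) and 11.41 and 11.28 (E10.5) in wild-type vesicles and at 10.73, 11.01, 10.49 and 10.58 in those labelled null, a difference of -0.94 (SE 0.12, limma adjusted p = 0.0656), against 1.23 with Dlx5 in 2B1. Apcdd1, in the same order, was at 9.64, 9.63, 8.55 and 8.84 and at 8.71, 8.55, 7.67 and 7.93, a difference of -0.95 read by another probe set than the 1.13 of 2B1. Neither vesicle value passed the threshold, and within each stage the genotypes did not overlap.

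Of the list members named above, Pof1b passed the threshold in the vesicles, at 7.36 to 8.11 in the wild type and 4.31 to 5.26 in those labelled null, a difference of -2.73 (SE 0.21, adjusted p = 0.00636), beside 0.95 in 2B1. Bmp4 differed by -0.91 there (adjusted p = 0.135) and Fst by -0.70, beside 0.77 and 0.43 in 2B1. Gap43 had -0.57, Gas1 -0.48, Dcn -0.40 and Cp -0.31, each against a positive 2B1 difference, and Aldh1a3 had 1.29 against -0.72. None of these but Pof1b passed the threshold in either setting. Other genes had the same sign in both, among them Lamb3 (-0.59 and, in 2B1, -0.61), Unc5b (-0.40 and -0.56) and Atp10a, a phospholipid flippase (-0.83 and -1.07), the last named after its values were seen.

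Of the 30 named genes 23 were tested in the vesicles, and 14 of these had the opposite sign there, 6 of 8 higher and 8 of 15 lower ones. Over all 12572 genes tested in both the share of opposite signs was 60.9%, and 55.2% without empty vector replicate 1, so the share among the named genes is near that of all genes. An unadjusted p under 0.05 in both was held by 80 genes. They were 5.07% of those at this p in 2B1, where 3.67% of all genes reached it in vesicles, and 17.3% of those at this p in vesicles, where 12.5% of all genes reached it in 2B1. Of the 80, 67 had opposite signs and 13 the same. Without that array 107 genes were held in both, 70 with opposite signs, and 63 were shared with the 80.

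**Figure D5:**
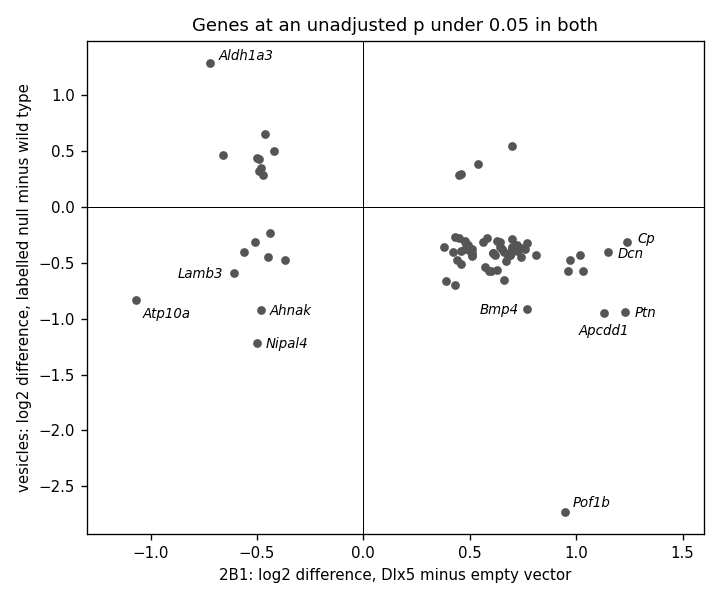
Log2 difference in vesicles (labelled null minus wild type) against that in 2B1 cells (Dlx5 minus empty vector) for the 80 genes at an unadjusted limma p under 0.05 in both, 1 point per gene. The lower right and upper left fields hold 67 of the points, with Ptn, Apcdd1, Bmp4 and Pof1b in the lower right, and Atp10a and Lamb3 lie in the lower left.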

How the data were processed

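Each of 12 RNA samples was read on 1 Affymetrix mouse array. The deposited values are log2 expression levels made by the authors, with RMA and Expression Console named per the submitters' processing notes and no version given in the sources used here. RMA compresses differences of dim probe sets. Scanner files were not used, so scan batches were not tested.

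Groups and replicate numbers came from the sample titles. Of 45101 probe sets, 34958 had 1 gene in the platform annotation, 932 several and 9211 none. Symbols were updated through RefSeq (34754 by gene identifier, 1 by accession, 203 kept). Each of 18194 genes was read by its brightest probe set over the 4 arrays, and the lowest 25% (mean below 4.85) were left out. The groups were compared by limma 3.58.1 (R 4.3.3, lmFit and eBayes, 2 residual degrees of freedom) with Benjamini-Hochberg adjustment at 0.05. The moderated test draws the spread of each gene toward a value shared over all genes, with 5.73 prior degrees of freedom. With 2 cultures per group, p-values and SEs thus rest on that shared spread as well as on the spread between those cultures. With 1 array left out, the spread between cultures is that of the group that kept 2 arrays.

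Since no gene passed, the genes named were 15 in each direction, by unadjusted p among those without overlap of groups and with a log2 difference of 0.5 or more; of each list up to 4 members were named, by unadjusted p under 0.05 and then by size, and others are marked in the text. Members, lists and rules were chosen with earlier results of these data known. The fit was tested on simulated data with independent noise for each gene and array. That test held no array that stood apart, so it does not bear on empty vector replicate 1. Alternatives covered filters, probe set rules, spread estimates, normalization, replicate numbers and each array left out.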

Additional observations from a re-analysis of the deposited data

How the results depend on the processing

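Of alternatives for the count of genes past the adjusted threshold (0), those that gave 0 were no filter, a 50% filter, probe sets tested singly or averaged, spread pooled over all 12 arrays, both normalizations and array weights (the last chosen after seeing the data). The array weights were equal within a group (2.96 for Dlx5, 0.338 for empty vector), so they did not set empty vector replicate 1 apart. An intensity trend with robust estimation gave 47 genes (25 higher, 22 lower). With the replicate number as a block there were 258 (217 higher, 41 lower), but same-numbered arrays share only a number (correlation of their deviations -0.13). The crossed pairing, chosen after seeing the data, gave 20. Leaving out 1 array gave 0 to 1742 genes, the most without empty vector replicate 2, where the lone control was the one that stood apart and is assumed to vary like the Dlx5 group. Without Dlx5 replicate 1 it was 4 and without Dlx5 replicate 2 it was 10.

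The count at an unadjusted p under 0.05 (1760) was 3556 with every probe set tested singly, of more tests, and 426 to 6335 with 1 array left out, the fewest without Dlx5 replicate 1 and the most without empty vector replicate 2. Members of all lists counted were 104, and 32 to 283 over these runs. Cholesterol synthesis had 5 to 14 members and interferon response 1 to 21, the fewest without Dlx5 replicate 2 and the most without empty vector replicate 2. Since the named genes were chosen for groups that do not overlap, their direction could not turn with an array left out and is no sign of stability. Ccnh was 0.02 with the mean of its probe sets. Of the 30, 30 passed the threshold with the replicate block, 22 with trend and robust estimation, 23 without empty vector replicate 2, 15 with the crossed pairing and 4 without Dlx5 replicate 2. Dlx5 stayed between 0.08 and 0.42 and was left out by the 50% filter. With 2 cultures a group and no detection calls, depth of signal over background is unknown.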
